A study of Mus musculus with 8 samples.

Results

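The p53 pathway was followed through 10 genes in mouse kidney tubuloids after the induction of Cre, namely Trp53, Mdm2, Bbc3, Bax, Ccng1, Phlda3, Eda2r, Zmat3, Sesn1 and Trp53inp1. They were taken by symbol from the transcript tables and make up 10 of 24063 gene symbols, with 16 transcripts among them. All 10 genes were counted in all 8 libraries. Tubuloids are spheroids and tubules grown from primary kidney fragments in Matrigel, here from kidneys of mice at postnatal day 7 to 10 by the sample labels, while the study's methods give a younger range for its kidneys. Both groups carried the same alleles, Pkd2fl/fl Pax8rtTA TetOCre mTmG, so that the floxed gene for polycystin-2, the Pax8-driven transactivator, the Cre transgene and the membrane reporter were also present in the controls. After differentiation, from day 3 of culture, 4 cultures received doxycycline (DOX 9, DOX 12, DOX 19 and DOX 21) and 4 received the solvent DMSO (DMSO 3, DMSO 5, DMSO 15 and DMSO 20) for 3 days, and RNA was extracted on day 7. By the study's methods, tubuloids were pulsed with the growth factor GDNF from plating and kept in medium with the growth factors HGF, EGF and bFGF. Doxycycline, Cre activity and loss of Pkd2 came together in the DOX group and cannot be told apart. The transactivator acts in Pax8-expressing epithelium, other cells of the fragments do not switch Cre on, and some epithelial cells stayed unrecombined, so each library is a mixture.

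The protein p53 is a transcription factor that is held at a low level by the ubiquitin ligase Mdm2 and is stabilised when DNA is damaged or cells are stressed. It then binds response elements made of a pair of decamer half-sites near its target genes, and these genes slow the cell cycle, set off cell death, repair DNA or feed back on p53. Much of its regulation is at the protein level, so that the mRNA of Trp53 itself is a poorer reading of the pathway than the mRNAs of its targets. Cre is a DNA recombinase that cuts and rejoins DNA at loxP sites.

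None of the 10 genes passed the DESeq2 test between DOX and DMSO, which required both a 1.5-fold change and an adjusted p no higher than 0.05 (0 of 10 genes called, against 0.147% of the 17011 genes tested). The point estimates leaned upward. The log2 fold change was above 0 for 8 of the 10 genes, where 44.4% of all tested genes had one, and below 0 for Bbc3 and Trp53inp1. Its median was 0.35 over the 10 genes and -0.07 over all tested genes. An unadjusted DESeq2 p under 0.05 was found for 1 of the 10, Phlda3, against 5.28% of tested genes. No gene had all 4 DOX libraries on one side of all 4 DMSO libraries (0 of 10, against 2.75% of tested genes). The edgeR quasi-likelihood test and limma-voom also called 0 of the 10 genes, but called 0 of all 15562 genes as well, so that this says nothing about the 10. Of the 10, each had 0 at an unadjusted p under 0.05, where 476 and 478 of all genes had one. What the 10 genes shared most visibly was a single library, DOX 9, which held the highest value of 7 of them and the lowest value of another, Sesn1.

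Counts per library ranged from 63922677 to 102716313, with several transcripts of a gene counting shared reads more than once. Fewer genes were detected in DMSO 20 (13243) and DOX 19 (13599) than in the other 6 libraries (17054 to 17903). By Xist and Y-linked transcripts, DMSO 15 and DOX 21 were male and the others female. Pkd2, the targeted gene, had 6128, 4813, 6039 and 7538 normalised counts in DMSO 3, 5, 15 and 20, and 4136, 5072, 5952 and 4624 in DOX 9, 12, 19 and 21. The groups overlapped (log2 fold change -0.31, DESeq2 adjusted p = 0.999, exact permutation p = 0.143). Leaving out 1 library moved the log2 fold change between -0.41 (without DMSO 5) and -0.20 (without DMSO 20). This count is thus no check that recombination took place, and it covers the whole transcript and does not single out the floxed exons. At the protein level, the paper reports less polycystin-2 by western blot in tubuloids given doxycycline, and in sorted cells whose reporter had switched. Epithelial markers (6 of 6 detected in every library; Epcam, Cdh1, Krt8, Krt18, Pax8 and Pax2) summed to 436 to 1758 TPM in DMSO and 533 to 1172 TPM in DOX libraries. TPM (transcript abundance scaled to a fixed total) is a level per length. Stromal markers (6 of 6) summed to 244.5 to 3452 TPM in DMSO and 528 to 869 TPM in DOX, and were highest in DMSO 15. Among them Col1a1, a collagen, had an unadjusted DESeq2 p of 0.0335 (log2 fold change -1.85, DESeq2 adjusted p = 0.873). Endothelial markers (4; leading genes Kdr and Pecam1) summed to at most 0.807 TPM and were all at 0 in DMSO 20. Immune markers (4; leading genes Cd68 and Ptprc) summed to at most 11.02 TPM, with Cd68 and Ptprc at 0 in DOX 19. Between the groups, the exact permutation p of the sums was 0.629, 0.629, 0.971 and 0.114 in that order. The part of cell composition in the values below was not tested, and in bulk RNA fewer cells of a type and less RNA per cell cannot be told apart.

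To show what p53 could bind near these genes, promoter windows of 300 bases (250 before the annotated start and 50 after it) were taken from RefSeq for build GRCm38.p6. They were found for 8 of the 10 genes, as 11 windows; Zmat3 and Trp53inp1 had no entry. The p53 half-site consensus of 10 bases was searched, which reads the same way on both strands. An exact half-site lay in 5 of the 11 windows (1 each of Trp53, Mdm2, Bax, Ccng1 and Sesn1), while 8.36% of all 32851 promoter windows hold one. A full site, 2 half-sites at most 13 bases apart with the central C and G of each kept, was found with at most 2 mismatches in 3 of the 11 windows (Ccng1, Bax and Sesn1), while 4.09% of all windows hold such a match. With at most 3 mismatches it was found in 6 of the 11, which adds windows of Bbc3 and Trp53, while 15.6% of all windows hold one. These counts are descriptions of letters in a window and do not show binding. The stretches of Ccng1, Bax and Sesn1 are shown as the closest matches, and that of Bbc3 because Bbc3 and Ccng1 were the pair with the highest correlation across libraries. By its letters the Bbc3 site matched no better than that of Trp53, which also had 3 mismatches. The sequences run 5′ to 3′ on the gene's strand, and capitals mark the half-sites.
Ccng1: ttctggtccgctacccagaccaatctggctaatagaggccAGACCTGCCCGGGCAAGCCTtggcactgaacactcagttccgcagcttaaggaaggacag
Bax: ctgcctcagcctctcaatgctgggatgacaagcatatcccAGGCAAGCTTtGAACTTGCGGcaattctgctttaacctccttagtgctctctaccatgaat
Sesn1: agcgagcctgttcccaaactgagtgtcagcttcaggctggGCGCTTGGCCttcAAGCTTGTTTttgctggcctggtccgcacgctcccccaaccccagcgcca
Bbc3: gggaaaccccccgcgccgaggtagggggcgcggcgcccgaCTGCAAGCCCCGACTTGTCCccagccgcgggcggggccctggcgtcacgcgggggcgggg

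The Ccng1 stretch (chr11:40755422-40755521, minus strand) had 1 mismatch in its full site, which began 195 bases before the annotated start. In Bax (chr7:45467039-45467139, minus strand) the site had 2 mismatches and began 201 bases before the start. In Sesn1 (chr10:41887213-41887315, plus strand) the site had 2 mismatches and lay 186 bases before the downstream of the 2 annotated starts, and the window of the upstream start held no exact half-site. The Bbc3 stretch (chr7:16309446-16309545, plus strand) had 3 mismatches and no spacer, 97 bases before the most upstream of its 3 starts with a window. The ends of the windows were also looked for near the starts of transcripts in the GENCODE annotation. They were found for Ccng1 and Bax, but not for Bbc3, Phlda3 and 1 Sesn1 window. For these the RefSeq start and strand were not borne out by this check. The Phlda3 and Eda2r windows held no exact half-site, which says only that these letters are not in the window.

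Trp53 encodes p53 (chromosome 11, 69580348 to 69591873, GRCm38.p6). Its normalised counts were 11799, 8629, 11116 and 8805.5 in DMSO 3, 5, 15 and 20, and 15267, 10408, 10966 and 10709 in DOX 9, 12, 19 and 21. DOX 9 stood above all the others, and the other 3 DOX libraries lay inside the DMSO range. The means were 10087 ± 1608 in DMSO and 11837 ± 2298 in DOX (SD, n = 4 each; log2 fold change 0.23, SE 0.217, DESeq2 adjusted p = 0.999). Here the unit mattered. In TPM summed over its transcripts, Trp53 was 124 to 138 in DMSO and 141 to 201 in DOX, and all 4 DOX libraries lay above all 4 DMSO libraries. The difference on the log2(TPM + 1) scale was 0.31, with the smallest p that 4 against 4 libraries can give (exact two-sided permutation p = 0.0286, not adjusted over the 10 genes). Trp53 was the only one of the 10 genes whose groups did not overlap in TPM (1 of 10, against 3.13% of tested genes), and in normalised counts they overlapped (exact permutation p = 0.286).

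Mdm2, the ubiquitin ligase that removes p53 and is itself a p53 target (chromosome 10, 117688875 to 117710758), had 20403, 19251, 19180 and 26442 normalised counts in DMSO 3, 5, 15 and 20. It had 41531, 26737, 19493 and 18280 in DOX 9, 12, 19 and 21. DOX 9 was the highest library and DOX 21 the lowest, so the DOX group enclosed the DMSO group. Mdm2 had a log2 fold change of 0.31 with an SE of 0.323 (95% interval of the fold 0.802 to 1.93, DESeq2 adjusted p = 0.999). Without DOX 9 it was 0.01, so the difference between the means rested on that library.

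**Figure D1:**
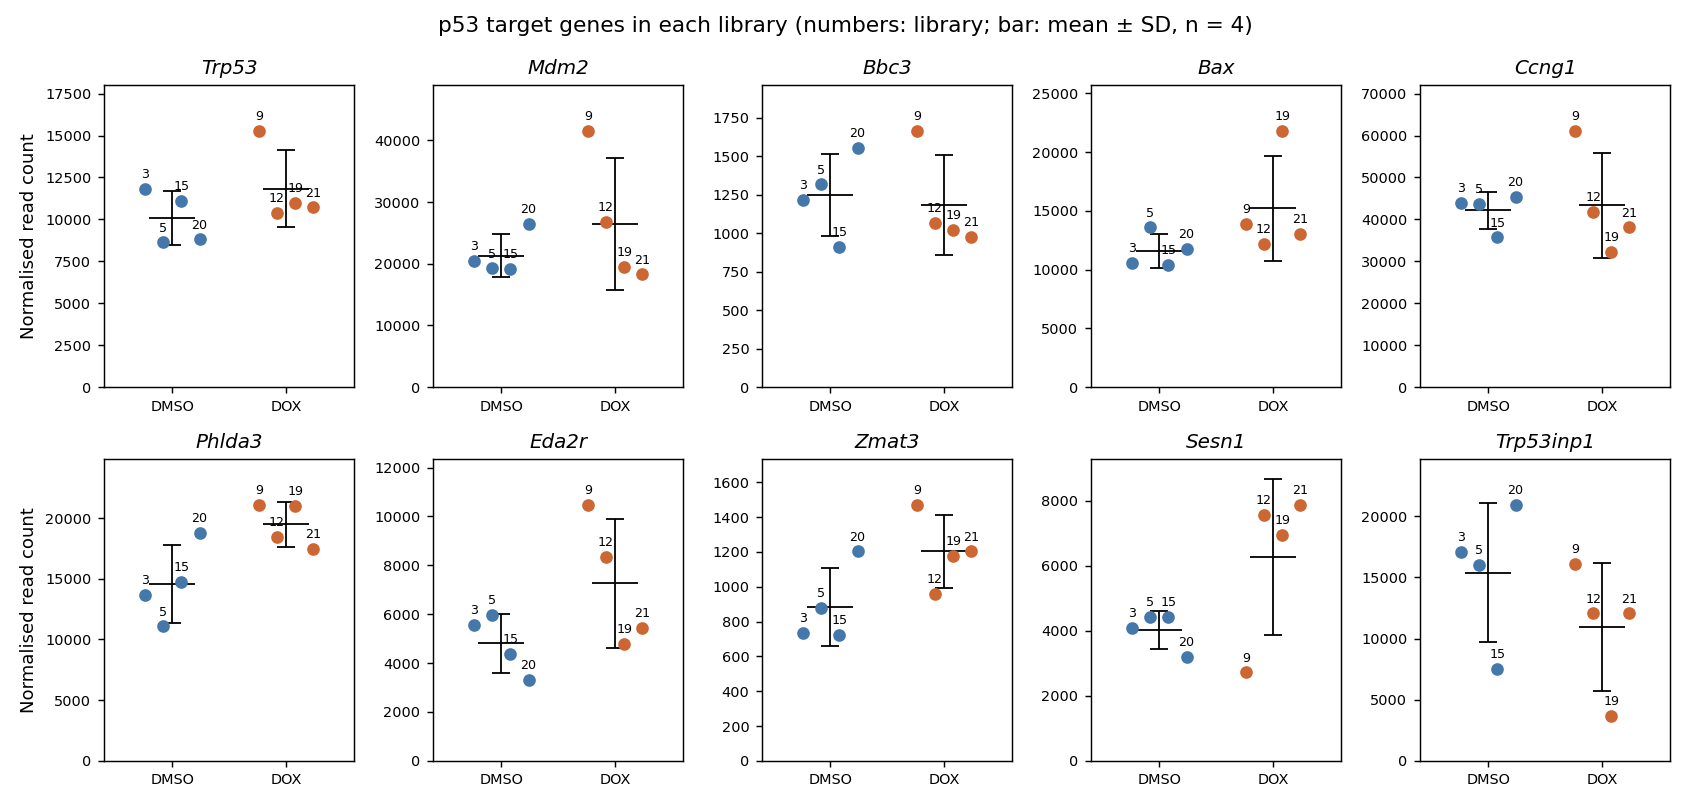
Normalised read counts (y axes, from 0) of the 10 genes in the 4 DMSO (blue) and 4 DOX (orange) libraries, each point labelled with its library number, with the mean and SD of each group as bars. DOX 9 is the highest point for 7 genes and the lowest for Sesn1, and the groups overlap for all 10 genes.

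Bbc3 and Bax are death effectors of the BCL2 family. Bbc3 encodes PUMA, a BH3-only protein that frees or activates the pore formers (chromosome 7, 16308398 to 16318334). Its normalised counts were 1212, 1316, 909.99 and 1552 in DMSO 3, 5, 15 and 20, and 1662, 1068, 1019.8 and 976 in DOX 9, 12, 19 and 21. Apart from DOX 9, the DOX libraries lay in the lower part of the DMSO range. DOX differed from DMSO by -0.08 on the log2 scale (SE 0.286; adjusted p = 0.999 in DESeq2), and the sign depended on which libraries were kept.

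Bax, a pore former of the outer mitochondrial membrane (chromosome 7, 45461695 to 45466903), had 10556, 13594, 10429 and 11797 normalised counts in DMSO 3, 5, 15 and 20. It had 13856, 12169, 21795 and 13012 in DOX 9, 12, 19 and 21. All 4 DOX values were above the DMSO mean of 11594 ± 1469 (SD, n = 4), but DOX 12 and DOX 21 were below DMSO 5. The highest value came from DOX 19, 1 of the 2 libraries with few detected genes. For Bax the log2 fold change came to 0.39 (SE 0.253; adjusted p = 0.999 in DESeq2, exact permutation p = 0.114) and to 0.18 without DOX 19. In the GENCODE annotation, 12.2% of the Bax exon bases (192 of 1576) also belong to Gm45808 on the same strand; none of the other 9 genes shared exon bases with another gene.

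Ccng1, Phlda3 and Eda2r act on growth and survival signals. Ccng1 encodes cyclin G1, an atypical cyclin that acts back on Mdm2 (chromosome 11, 40748552 to 40755309). It had 43916, 43630, 35705 and 45380 normalised counts in DMSO 3, 5, 15 and 20, and 61069, 41831, 32328 and 38068 in DOX 9, 12, 19 and 21. The DOX group spread to both sides of the DMSO group, with DOX 9 highest and DOX 19 lowest. On the log2 scale the groups differed by 0.04 (SE 0.249, 95% interval of the fold 0.733 to 1.44; adjusted p = 0.999 in DESeq2). This interval bounds a change in Ccng1 more tightly than it does for Mdm2 or Sesn1.

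Phlda3, a PH-domain protein that holds AKT back from the membrane (chromosome 1, 135766085 to 135769134), had the smallest unadjusted p of the 10 genes. Its normalised counts were 13636, 11075, 14720 and 18776 in DMSO 3, 5, 15 and 20, and 21091, 18416, 20964 and 17457 in DOX 9, 12, 19 and 21. Only DMSO 20 reached into the DOX range, and the DOX libraries were close to each other (coefficient of variation 9.38%, against 22.02% in DMSO). The means were 14552 ± 3204 in DMSO and 19482 ± 1828 in DOX (SD, n = 4 each), a fold of 1.34 (95% interval 1.003 to 1.79). This difference, 0.42 on the log2 scale with an SE of 0.212, did not pass in DESeq2 (adjusted p = 0.943) or edgeR (adjusted p = 0.999). Before adjustment, p was 0.0474 in DESeq2 and 0.0635 in edgeR, and 0.0857 in the exact permutation test. Leaving out DMSO 20 gave a log2 fold change of 0.56 and the smallest adjusted p of Phlda3 in any fit (DESeq2 adjusted p = 0.215).

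Eda2r, a receptor of the TNF receptor superfamily for the ectodysplasin form EDA-A2 (chromosome X, 97333837 to 97377234), had 5577, 5973, 4366 and 3323 normalised counts in DMSO 3, 5, 15 and 20. It had 10476, 8339, 4791 and 5451.5 in DOX 9, 12, 19 and 21. DOX 9 and DOX 12 lay above all DMSO libraries, and DOX 19 and DOX 21 lay within them. Its log2 fold change of 0.59 had an SE of 0.345 (adjusted p = 0.999 in DESeq2), and it was 0.36 without DOX 9. The transcripts of Eda2r were counted less alike than those of the other genes with several, where each transcript had at least 95.35% of the count of the most counted one in every library. NM_001161433 had 59.1% to 77.2% of the count of NM_001161432 in 7 libraries and 24.3% in DMSO 20, also the library with the lowest Eda2r count. With 1 transcript per gene the log2 fold change was 0.54 (DESeq2 adjusted p = 0.925).

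Zmat3, Sesn1 and Trp53inp1 act in RNA binding, nutrient signalling and autophagy. Zmat3, a zinc finger protein that binds RNA and alters splicing (chromosome 3, 32334792 to 32365665), had 737, 879, 722 and 1204 normalised counts in DMSO 3, 5, 15 and 20. It had 1471, 961, 1177 and 1203 in DOX 9, 12, 19 and 21. DMSO 20 was again the only control inside the DOX range. DOX exceeded DMSO by 0.44 on the log2 scale (SE 0.263; adjusted p = 0.999 in DESeq2). With DMSO 20 and DOX 19 left out, the 3 remaining DOX libraries were above the 3 remaining DMSO libraries for Zmat3 and Phlda3 (2 of 10 genes, against 5.89% of tested genes), with log2 fold changes of 0.66 and 0.55 (DESeq2 adjusted p = 0.516 and 0.55), and 3 against 3 libraries cannot give an exact permutation p below 0.1.

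Sesn1 encodes sestrin 1, which restrains the growth kinase complex mTORC1 under stress (chromosome 10, 41810574 to 41908436). It had the largest log2 fold change of the 10 genes, 0.64 (SE 0.369, unadjusted p = 0.0837, DESeq2 adjusted p = 0.999), and its DOX libraries fell on both sides of the DMSO libraries. Its normalised counts were 4094, 4423, 4421.5 and 3189.6 in DMSO 3, 5, 15 and 20, and 2717, 7564, 6950.2 and 7874 in DOX 9, 12, 19 and 21. DOX 12, 19 and 21 lay well above every DMSO library, and DOX 9 lay below every one of them. Without DOX 9, Sesn1 was called (log2 fold change 0.89, SE 0.192, DESeq2 adjusted p = 0.00483), the only call of any of the 10 genes in the 18 alternative fits to the counts, where 0.163% of the 16527 genes tested were called without that library. Leaving out DOX 9 was 1 of 8 such fits, and the value with all 8 libraries is not called. The second Sesn1 transcript had 95.4% to 104% of the count of the first in every library, so that these counts do not tell the 2 annotated starts apart.

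Trp53inp1, a stress protein that acts with p53 and in autophagy (chromosome 4, 11156441 to 11174379), was the gene with the largest spread. Its normalised counts were 17075, 16045, 7509 and 20935 in DMSO 3, 5, 15 and 20, and 16076, 12058, 3662 and 12054 in DOX 9, 12, 19 and 21. No DOX library was above the DMSO range and DOX 19 was below it, 5.72-fold under DMSO 20. The groups differed by -0.49 on the log2 scale (SE 0.503; adjusted p = 0.999 in DESeq2), and by 0.01 with DMSO 20 and DOX 19 left out.

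**Figure D2:**
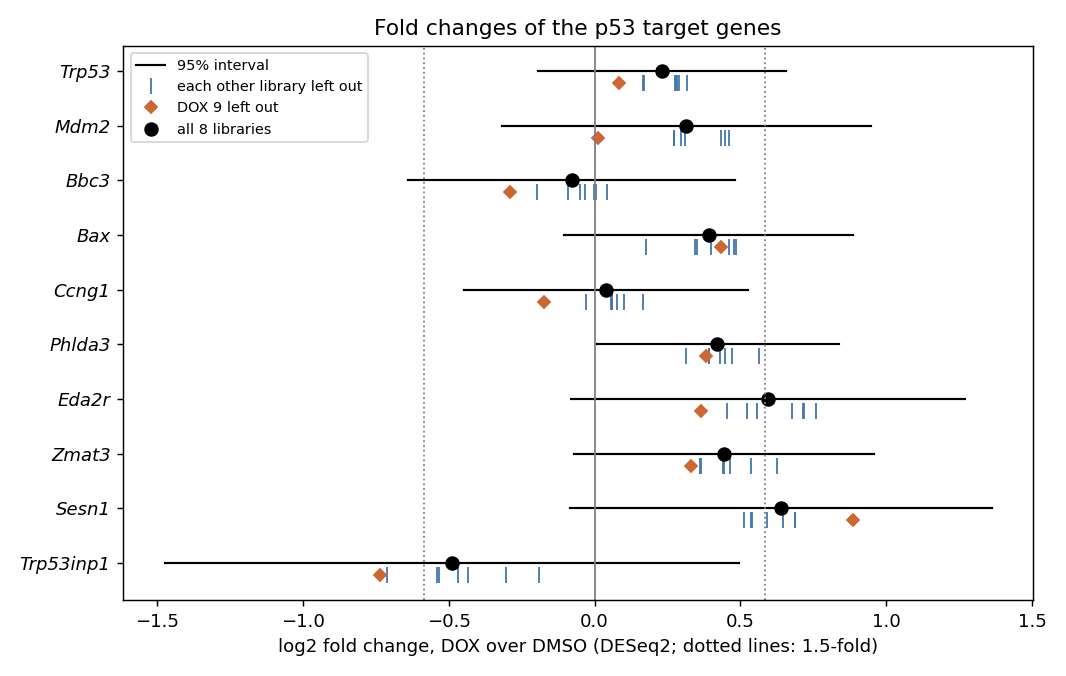
Log2 fold changes of the 10 genes (DOX over DMSO, DESeq2; x axis), with all 8 libraries (black points, bars are 95% intervals) and with each library left out in turn (blue ticks, orange diamond for DOX 9). Without DOX 9, Mdm2 is at 0.01 and Sesn1 at 0.89.

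DOX 9 stood apart across the genes. It was the highest of the 8 libraries for 7 of the 10 genes (Trp53, Mdm2, Bbc3, Ccng1, Phlda3, Eda2r and Zmat3), while it was the highest for 10.1% of all tested genes. On the log2 scale the 10 genes were a median of 0.49 above their own means in DOX 9, and 9 of the 10 were above. In the other libraries this median ranged from -0.29 in DMSO 15 to 0.14 in DMSO 20. The other 3 DOX libraries had medians of 0.01 (DOX 12), -0.10 (DOX 19) and -0.01 (DOX 21), with single genes on both sides, from -1.68 to 0.74 in DOX 19 and reaching 0.65 in DOX 12 and 0.71 in DOX 21. DMSO 15, the male control with the highest stromal marker sum, had 1 of 10 genes above its mean. Without DOX 9, 7 of the 10 genes were above 0 (43.8% of tested genes) and the median log2 fold change of the 10 was 0.21, against -0.08 over all tested genes. Without both DMSO 20 and DOX 19, all 10 were above 0 (44.7% of tested genes) and the median was 0.36 (-0.06 over all tested genes), with 0 of the 10 called and 51 of the 17252 tested.

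**Figure D3:**
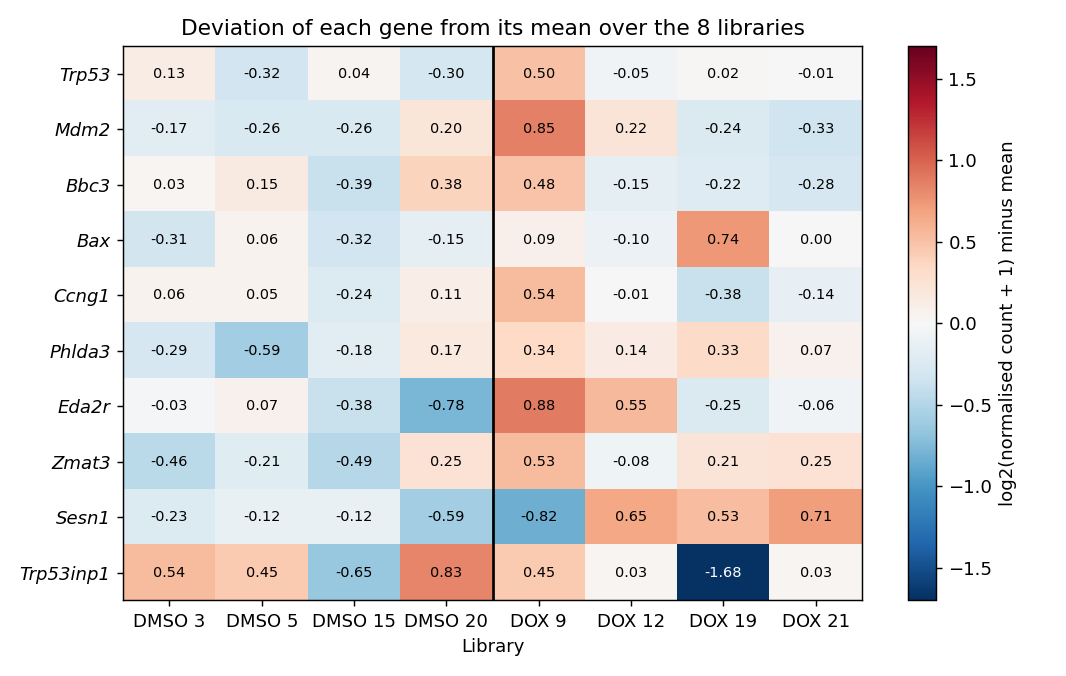
Deviation of log2(normalised count + 1) from each gene's mean over the 8 libraries (colour and printed number; rows are genes, columns are libraries, the line parts DMSO from DOX). The DOX 9 column is above the mean for every gene but Sesn1, and DOX 19 holds the lowest value (-1.68, Trp53inp1).

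The levels of the 10 genes were compared per length, as the TPM of the most counted transcript. By median over the 8 libraries, Bax was highest (371 TPM), followed by Phlda3 (307), Ccng1 (301), Mdm2 (79.0), Trp53 (67.9), Trp53inp1 (32.8), Sesn1 (17.1), Bbc3 (14.3), Eda2r (9.71) and Zmat3 (3.55). Neighbours in this order whose ranges did not overlap were Ccng1 and Mdm2, Trp53 and Trp53inp1, and Eda2r and Zmat3. The ranges of all other neighbours overlapped, and Phlda3 was above Ccng1 in 3 of 8 libraries. Summed over transcripts, which counts shared reads more than once, Eda2r had a median of 34.2 TPM and stood above Bbc3 (14.3), and Mdm2 (159.6) stayed above Trp53 (139.4). Of the death effectors, the TPM of Bax was thus far above that of Bbc3 in both groups.

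Whether the 10 genes rose and fell together was examined over the 6 libraries other than DMSO 20 and DOX 19, in 45 pairs. Pearson's r was positive in 36 pairs with a median of 0.52 (0.23 over all 8 libraries). These values were not taken over other genes, so whether they are unusual was not tested. After adjustment over the 45 pairs, 0 passed (3 had an unadjusted exact permutation p under 0.05, the third being Ccng1 and Eda2r at r = 0.85). Bbc3 and Ccng1 were closest (r = 0.96, exact permutation p = 0.00278, the smallest that 6 libraries can give; Spearman's rho = 0.94, exact permutation p = 0.0167). Adjusted over the 45 pairs, the exact permutation p of this pair was 0.125 for r and 0.375 for rho. A pair at the smallest p cannot get below 0.125 unless other pairs have a p nearly as small. That 0 pairs passed therefore says little. Leaving out the 2 libraries farthest from the median of Bbc3 left r at 0.90. For Mdm2 and Eda2r, r was 0.92 (exact permutation p = 0.0153, adjusted p = 0.344; rho = 0.89, exact permutation p = 0.0333), and over the 4 libraries left without the 2 farthest it was 0.12, so that its size rested on those libraries. It was 0.85 without DOX 9, 0.89 within groups and 0.60 over all 8 libraries.

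For the other genes the member with the highest r was Mdm2 for Trp53 (r = 0.76), Zmat3 for Bax and Bax for Zmat3 (0.82), Trp53 for Phlda3 (0.73), Bbc3 for Trp53inp1 (0.79) and Phlda3 for Sesn1 (0.03). The rho of these pairs was 0.37, 0.83, 0.43, 0.83 and -0.09, and the exact permutation p ranged from 0.0542 to 0.956 for r and from 0.0583 to 0.919 for rho, with no adjusted value under 0.366. Leaving out the 2 farthest libraries, which leaves 4, turned r negative for the pair of Trp53 and Mdm2 (-0.46) and for that of Trp53 and Phlda3 (-0.97). Within groups r was 0.70 for the former and 0.87 for the latter. Without DOX 9, with no group means subtracted, it was 0.05 and 0.50. For Phlda3 and Sesn1, r went from 0.03 to 0.97 without the 2 farthest libraries, to 0.83 without DOX 9 and to -0.55 within groups. The sign or size of r in these pairs thus depended on the libraries kept. Sesn1 had a positive r with 1 of the 9 other genes, and with 6 of the 9 without DOX 9, so this count rested on that library. The points share library composition and depth, and within groups, after the group means were subtracted, the median r was 0.40. Without DOX 9, and with no group means subtracted, the median r was 0.28, with 29 of 45 pairs positive.

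Further genes of the pathway were read from lists beside the 10. Of 35 further p53 targets, 18 were higher and 17 lower with DOX, 0 were called and 1 had an unadjusted DESeq2 p under 0.05 (0.147% and 5.28% of all tested genes). Their median log2 fold change was 0.12. That 1 gene was Aen, a p53-induced nuclease, with 6777, 6510.3, 6487 and 6479 normalised counts in DMSO 3, 5, 15 and 20 and 13526, 10229, 7434 and 6937 in DOX 9, 12, 19 and 21. All 4 DOX libraries were above all 4 DMSO libraries (1 of the 35 did not overlap, a share near the 2.75% of all tested genes), DOX 9 again highest (log2 fold change 0.54, SE 0.261, unadjusted p = 0.0393, DESeq2 adjusted p = 0.896). DOX 9 was the highest library for 10 of the 35 genes and the lowest for 0, and DMSO 20 was the highest for 9 and the lowest for 9. Over all tested genes DOX 9 was the highest for 10.1% and the lowest for 8.59%, and DMSO 20 for 18.8% and 33.9%. DOX 21 went the other way, being the lowest for 8 of the 35 genes (3.88% of all tested genes) and the highest for 2.

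By role, 8 cell cycle arrest genes had a median log2 fold change of 0.19 (6 higher, 2 lower). Among them Cdkn1a, the cyclin-dependent kinase inhibitor p21, had 22947 to 28752 normalised counts in DMSO and 55007 in DOX 9, against 26158 to 35975 in DOX 12, 19 and 21 (log2 fold change 0.49, adjusted p = 0.999 in DESeq2). Gadd45a, a stress-induced growth arrest protein, had a log2 fold change of 0.25. The 10 death and secreted genes had a median of -0.13 (3 higher, 7 lower). The 8 metabolism and stress genes had a median of 0.25 (5 higher, 3 lower), with Sesn2, the relative of Sesn1, at 0.59 and the adenylate kinase Ak1 at 0.26. Sesn2 was highest in DOX 9 (8587 normalised counts, against 2934 to 4974 in the other libraries), the library where Sesn1 was lowest. The 4 repair genes had a median of 0.04 (2 higher, 2 lower), with Ddb2 at -0.28 and Xpc at -0.12, both of which recognise DNA lesions. The 5 feedback genes had a median of -0.05 (2 higher, 3 lower), with the ubiquitin ligases Rchy1 at 0.31 and Cop1 at -0.06. None of these genes was called.

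Of 12 p53 regulators and family members, 11 were tested, 3 higher and 8 lower, with 0 called and 1 at an unadjusted p under 0.05 (0.147% and 5.28% of all tested genes), a count too small to set against that share. This was Chek1, a checkpoint kinase, at 634 to 2303.5 normalised counts in DMSO and 233 to 724 in DOX (log2 fold change -1.27, SE 0.567, DESeq2 adjusted p = 0.830), its highest value being in DMSO 20.

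**Figure D4:**
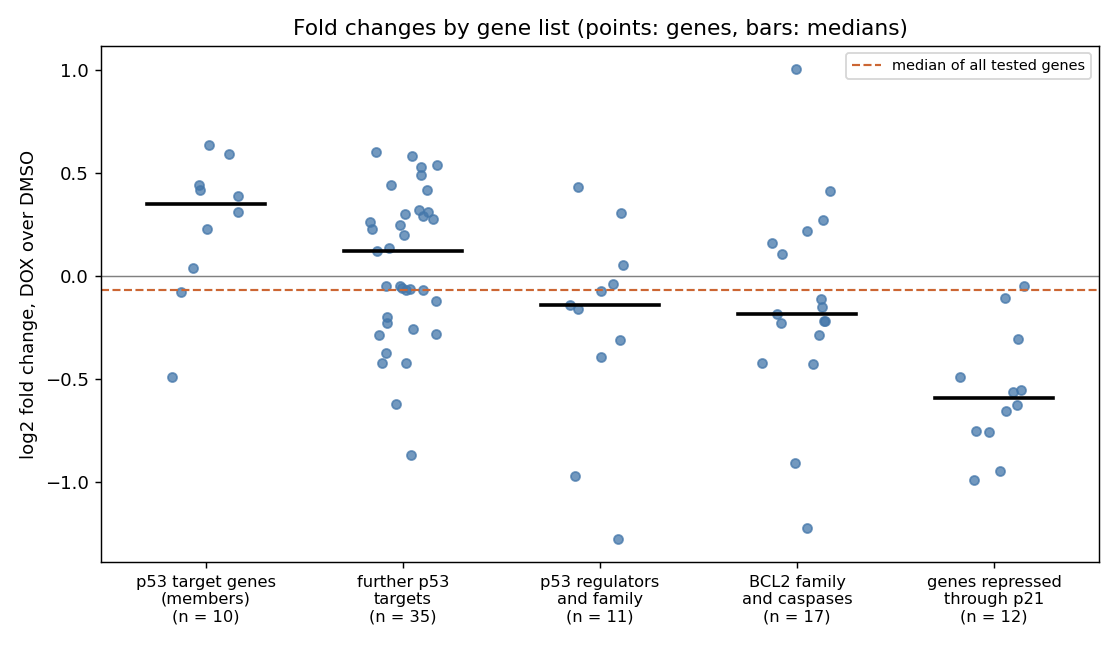
Log2 fold changes (DOX over DMSO, DESeq2; y axis) of the tested genes of each list (points), with list medians (black bars) and the median of all tested genes (dashed line, -0.07). The 10 p53 target genes have a median of 0.35, the 35 further targets 0.12 and the 12 genes repressed through p21 -0.59, with no gene called in any list.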

How the data were processed

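RNA of 8 tubuloid cultures was made into poly-A selected SMART-Seq v4 libraries, which do not mark strand. The deposited tables hold, per RefSeq transcript, read counts, FPKM and TPM made by the authors with STAR and featureCounts on mm10; versions are not given in the sources used here. FPKM values as deposited were not used. Counts and TPM were summed by symbol. Groups and library numbers came from the sample titles. No number was shared between groups, so no pairing could be read from them. The titles do not say whether a DOX and a DMSO culture shared a preparation. Whether the cultures came from separate animals is not given in the sources used here, and p-values measure the spread between these cultures.

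Counts were tested with DESeq2 1.42.0 (Wald test, Benjamini-Hochberg adjustment, independent filtering at 0.1, Cook filter), the study's tool, over all 24063 symbols. Normalised counts are counts divided by DESeq2 size factors, and 95% intervals are Wald intervals. edgeR 4.0.16, limma 3.58.1 and other settings were alternatives. Exact two-sided permutation tests used all 70 assignments of log2(value + 1), and correlations all 720 orders of 6 libraries. The scripts were tested on simulated data. The members and gene lists were chosen with earlier results of these data known. The genes named were the 10 members, Pkd2, the closest member of each, and from each list those with an unadjusted p under 0.05 or otherwise the 2 with the highest mean TPM; other names were chosen after their values were seen.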

Additional observations from a re-analysis of the deposited data

Results flagged for a closer look

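Dixon's test at 95% was applied to the log2 values of each group of 4 libraries, and compares the gap beside the highest or lowest library with the group's range. Of 20 groups of the 10 genes, 4 had a library past its critical value, where chance gives about 1 in 20, and 3 of the 4 values came from DOX 9. Trp53 had 15267 normalised counts in DOX 9, where DOX 12, 19 and 21 had 10408 to 10966 (a gap of 0.864 of the range). Bbc3 had 1662.2 normalised counts in DOX 9, against 976 to 1068 in the others (gap 0.832). Sesn1 went the other way, with 2717.4 in DOX 9 against 6950.2 to 7874 in the others (gap 0.883). Ccng1 had 35705 normalised counts in DMSO 15, where DMSO 3, 5 and 20 had 43630 to 45380 (gap 0.836). The values are not independent, since the genes share libraries.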

How the results depend on the processing

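Over 20 alternatives for each of the 10 genes, 191 of 200 values kept their direction and stayed uncalled; as no gene was called with all 8 libraries, no call could be lost, and this count says nothing of how stable the sizes were. Mdm2 fell from 0.31 to 0.01 and Trp53 from 0.23 to 0.08 without DOX 9, and Bax from 0.39 to 0.18 without DOX 19 (log2 differences, DOX over DMSO, are in parentheses). Sesn1 was called without DOX 9 (0.89), and Trp53 passed 0.05 in TPM with a pseudocount of 1 (0.31) or 0.1 (0.31). Reversed were Bbc3 without DMSO 20 (0.044), without DOX 21 (0.0058) and without DMSO 20 and DOX 19 (0.13), Ccng1 without DMSO 15 (-0.03) and without DOX 9 (-0.17), and Trp53inp1 without DMSO 20 and DOX 19 (0.0126). Leaving out 1 library put Bbc3 between -0.29 and 0.044 and Ccng1 between -0.17 and 0.17. Leaving out 1 library moved the median log2 fold change of the 10 between 0.21 and 0.45, the number called from 0 to 1 and the number not overlapping from 0 to 2 (2 without DMSO 20, where 6.93% of all tested genes did not overlap, and also 2 without DMSO 20 and DOX 19, where 10.3% did not). Against 25 genes called over all genes, edgeR and limma-voom called 0 (476 and 478 at an unadjusted p under 0.05), at least 10 counts in every library gave 16, the Cook filter off 48, library sex as a covariate 43, the 3 against 3 libraries 51, and leaving out 1 library 14 to 75 (75 without DMSO 15, 48 without DMSO 20, 38 without DOX 21, 14 without DMSO 3). The median r was 0.23 over all 8 libraries and 0.40 within groups. The cause was not tested. No paired analysis was possible because the groups share no replicate numbers. Counting error was not measured apart from the spread between cultures.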

Other observations

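Of 17 further genes of the BCL2 family and caspases, 6 were higher and 11 lower with DOX, 0 were called and 0 had an unadjusted DESeq2 p under 0.05 (over all tested genes 44.4% were higher, 0.147% called and 5.28% under 0.05). Their median log2 fold change was -0.18, against -0.07 over all tested genes. The survival genes Mcl1 and Bcl2l1 had log2 fold changes of -0.22 and 0.27 (DESeq2 adjusted p = 0.999 for both). Casp9, the initiator caspase of the mitochondrial pathway, was the only one of the 17 whose groups did not overlap (1 of 17, against 2.75% of tested genes), and it was chosen for this once its values were known. It had 2343, 2716, 2169 and 0 normalised counts in DMSO 3, 5, 15 and 20, and 3093.5 to 4846 in DOX (log2 fold change 1.004, SE 1.26, DESeq2 adjusted p = 0.999). The 0 is from DMSO 20, a library with few detected genes, and widens the difference.

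Genes that are repressed through p21 and the DREAM complex when p53 is active are mostly genes of the S, G2 and M phases. All 12 on the list had log2 fold changes below 0, with a median of -0.59 (over all tested genes 44.4% were above 0 and the median was -0.07), but 0 were called and 0 had an unadjusted DESeq2 p under 0.05 (0.147% and 5.28% of all tested genes). Such genes share the cell cycle and the same libraries, so they are not 12 separate observations. The paper reports no significant change in its own set of proliferation markers after doxycycline. Of the 4 marker lists, 3 lay on the same side: 6 of 6 epithelial markers (median -0.39), 5 of 6 stromal markers (median -0.91) and 3 of 3 tested immune markers (median -1.65) had values below 0, while endothelial markers were split (2 above and 2 below, median 0.07), and the part of cell composition was not tested. Cdk1, the mitotic kinase, had 4905, 5306, 7265 and 2172 normalised counts in DMSO 3, 5, 15 and 20, and 2137, 4895, 2565 and 2915 in DOX 9, 12, 19 and 21 (log2 fold change -0.65, SE 0.439, DESeq2 adjusted p = 0.999). Ccna2, cyclin A2, differed by -0.49 on the log2 scale (SE 0.46; adjusted p = 0.999 in DESeq2). For both genes DOX 9 and DMSO 20 were the 2 lowest libraries and DMSO 15 was the highest, and the groups overlapped.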
